A study of Rattus norvegicus with 52 samples.

Results

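Galanin (Gal), neuropeptide Y (Npy) and vasoactive intestinal peptide (Vip) were followed in dorsal root ganglia (DRG) of the rat. They were chosen by symbol, and 3 of the 6028 genes named on the array are therefore described, each measured by 1 of its 8455 probes. The study hybridised RNA of L4, L5 and L6 DRG to two-colour arrays, and its title calls the ganglion neurons regenerating. A pool of 3 animals made up each RNA sample, and the same pool was hybridised at least 3 times in an interwoven loop with both dyes. The labels name a series of SN pools at 6, 12, 24, 48 and 72 h and at 7 and 14 d with its own control CON(SN), and a series of DR pools at the same times with its own control CON(DR). The labels do not spell out SN and DR. By what is known of the study, SN was an injury to the sciatic nerve, which holds the peripheral axons of these neurons, and DR an injury to the dorsal root, which holds the central ones. Strain, age and the handling of the control animals are not given in the sources used here. There were 52 channels in 16 groups, 3 channels in each but for 4 in DR6h, 5 in DR12h and 4 in DR48h.

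The channels of a group repeat 1 pool, so that the p-values below measure only the spread between hybridisations, but for those of the paired pools, which measure the spread of the pool differences over the times, and lesion, animals and pool cannot be told apart. SN and DR pools were taken as never sharing an array, since the arrays were inferred within each series. In whole ganglia, fewer cells of a type and less RNA per cell also cannot be told apart. The 15 measured markers of sensory neurons, of a list of 16, summed to between 167700 and 242500 intensity units in the 52 channels, so that markers of the labelled tissue were present in each. On the first principal component of all probes (22.4% of the variance) 4 DR channels stood apart at 37.8 to 41.7, namely DR48h replicate 4, DR72h replicate 3 and DR14d replicates 2 and 3. The DR calls of Gal, Npy and Vip in the channel fit are given with and without them below. Values of all other genes include them. DR7d replicate 1 and SN6h replicate 3 stood apart at the other end, at -35.1 and -34.8. Without the former, the Npy difference between the lesions at 7 d was 2.43 and not called (adjusted p = 0.0512). With all channels it was 2.42 (adjusted p = 0.0441), and that call was lost in 9 of 12 fits with 1 channel of its groups left out. Without SN6h replicate 3, the Npy difference on the mean over the times was called (1.70, adjusted p = 0.0376), as it was in 8 of 52 such fits.

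All 3 peptides are cut from larger precursors, stored in dense-core vesicles and released onto receptors coupled to G proteins. Galanin acts through Galr1, Galr2 and Galr3, neuropeptide Y through the Y receptors, and VIP through Vipr1 and Vipr2, which it shares with the related peptide PACAP (Adcyap1). In the rat, the uninjured ganglion holds few cells that stain for any of the 3 peptides, and their appearance in sensory neurons after the peripheral axon is cut is a classic description of the injured neuron.

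The upstream sequences are shown because CREB, AP-1 and STAT factors, which are active in injured neurons, have been studied at genes of this kind. The 250 bases before the annotated start are from the RefSeq promoter table of build GRCr8 and are given 5′ to 3′ on the strand of the gene, at chr1:210084573-210084822 (minus strand) for Gal, chr4:80211861-80212110 (plus strand) for Npy and chr1:44470230-44470479 (plus strand) for Vip. Capitals mark TGACG, the core of the cAMP response element (CRE).
Gal: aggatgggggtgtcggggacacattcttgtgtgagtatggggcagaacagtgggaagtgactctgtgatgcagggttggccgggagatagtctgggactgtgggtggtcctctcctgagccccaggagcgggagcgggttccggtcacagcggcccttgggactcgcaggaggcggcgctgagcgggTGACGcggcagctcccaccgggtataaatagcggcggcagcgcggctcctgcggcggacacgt
Npy: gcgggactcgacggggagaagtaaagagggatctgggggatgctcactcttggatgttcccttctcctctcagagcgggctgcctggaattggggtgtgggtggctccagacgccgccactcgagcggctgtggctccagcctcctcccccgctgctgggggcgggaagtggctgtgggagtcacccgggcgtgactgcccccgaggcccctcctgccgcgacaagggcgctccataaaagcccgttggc
Vip: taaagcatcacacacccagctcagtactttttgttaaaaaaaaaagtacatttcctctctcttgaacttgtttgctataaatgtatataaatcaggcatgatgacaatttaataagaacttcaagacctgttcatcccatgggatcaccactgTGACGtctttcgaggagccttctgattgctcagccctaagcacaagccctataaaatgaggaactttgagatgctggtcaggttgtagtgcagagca

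Gal held 1 such core that began 63 bases before the start, and Vip 1 that began 97 bases before it. Npy held none in this window. The core, searched as TGACGNNN on both strands, was present in 18% of the 33469 promoters of the table. The full element TGACGTCA (1.59% of promoters), the AP-1 site TGANTCA (6.34%) and the STAT site TTCNNNGAA (7.67%) were in none of the 3 windows. A full element contains the core, and a match is no more than a run of letters. Gal and Vip lie on chromosome 1 and Npy on chromosome 4 of the same build. The start in the promoter table lies inside the span that the RefSeq gene table gives for Vip.

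**Figure D1:**
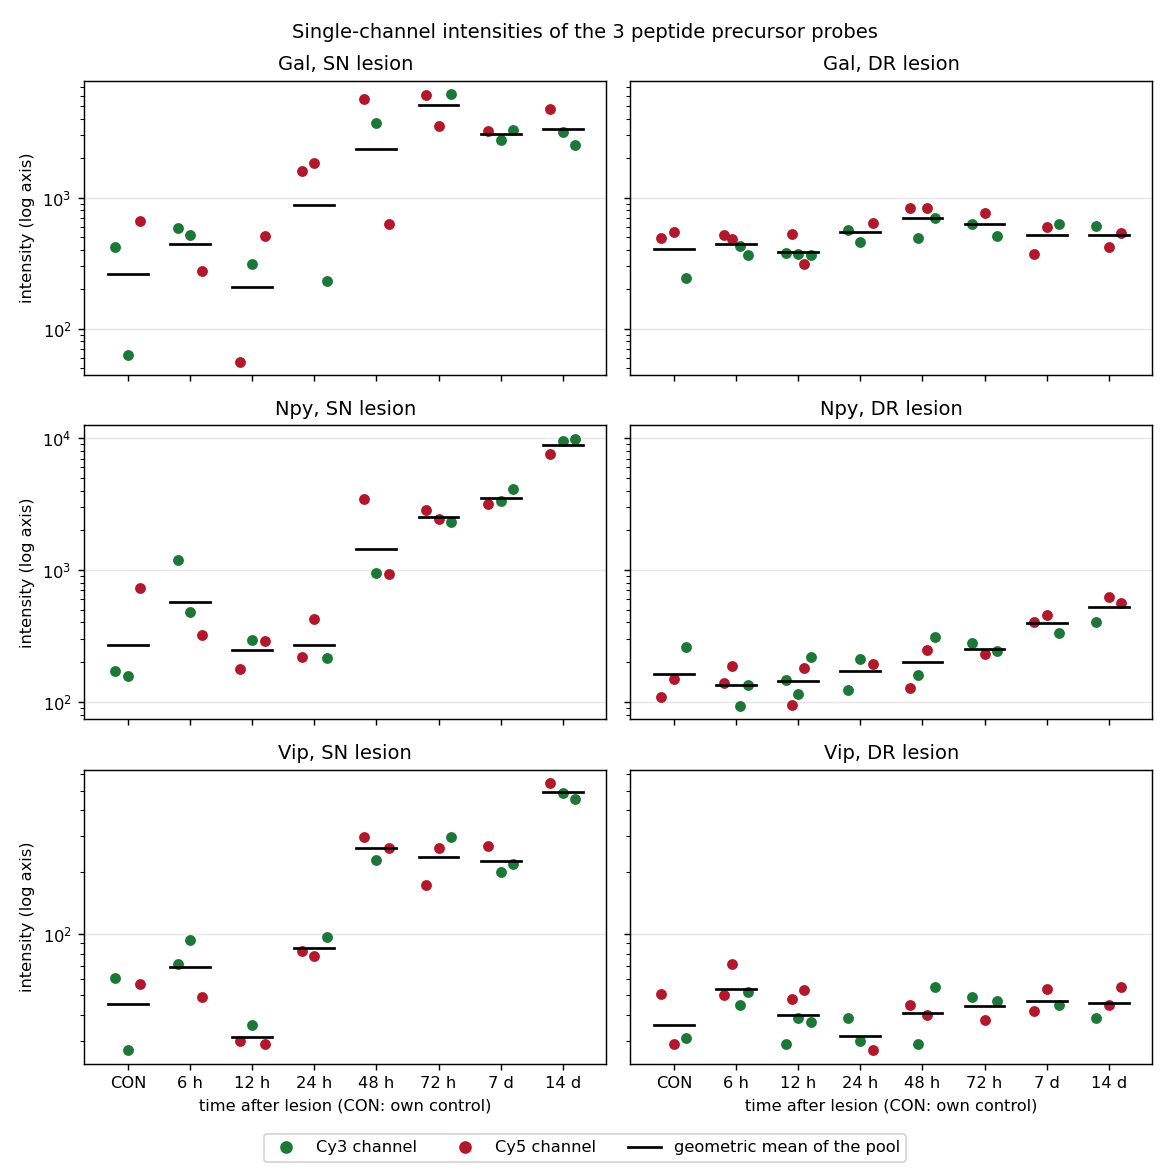
Intensity (log axis) of Gal, Npy and Vip in each of the 52 channels, by time after SN (left) and DR (right) with the own control first; points are channels coloured by dye and lines are geometric means of a group. The SN channels from 48 h on lie above all DR channels for Npy and Vip and, but for 1 channel, for Gal, whose SN control spreads from 63 to 663.

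Galanin was low and variable in the SN control and among the earliest SN times, and was high from 48 h on. The CON(SN) channels read 423, 63 and 663 intensity units. At 6 h the channels read 589, 523 and 276, and at 12 h 56, 314 and 513, which lies within the control range or just under it. The 24 h channels split, at 1604, 1833 and 232. At 48 h the readings were 5616, 3692 and 630, and 1 channel of that group was thus still below the highest control. The 72 h channels, at 6030, 3497 and 6136, formed the highest group, and 7 d followed with 3212, 2739 and 3264. At 14 d they were 4784, 3156 and 2514. At 72 h, 7 d and 14 d the SN channels no longer overlapped with the control, as was so for 6.85%, 5.13% and 9.9% of all probes that were higher at these times.

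In the channel fit, a limma model with group and dye as terms over all 52 channels, Gal exceeded its control by 3.08 ± 0.67 on the log2 scale at 48 h (SE; n = 3 against 3; adjusted p = 0.00467). The difference was largest at 72 h, at 4.18 ± 0.67 (18.2-fold; adjusted p = 4.59e-05), and was 3.55 ± 0.66 at 7 d and 3.69 ± 0.66 at 14 d. A single time was called at an adjusted p below 0.05, over all probes, with at least 1.5-fold change. By that limit the 24 h difference of 1.66 ± 0.67 was not called (adjusted p = 0.691), and those at 6 and 12 h, 0.76 and -0.42, were not either. No step of Gal between consecutive times was called, with 2.08 ± 0.66 from 12 h to 24 h (adjusted p = 0.626) as the largest. From 24 h to 48 h the step was 1.42 ± 0.66. Between 48 h and 14 d the largest was 1.10 ± 0.66, from 48 h to 72 h.

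The 1 low control channel weighs on these sizes. Without CON(SN) replicate 2, at 63 units, the rise at 72 h was 3.22, and the calls at 48 h and 7 d were lost, at 2.12 and 2.57. Without SN48h replicate 1 or replicate 2 the 48 h call was lost as well. With only the SN channels and their control in the fit, the rises at 48 h and 7 d were 3.07 and 3.55 and not called (adjusted p = 0.0839 and 0.0536). The deposited files do not say which channels shared an array. When the channels were joined into 26 arrays by the authors' deposited coefficients, the low control channel fell on the same array as the lowest SN12h channel, with 63 against 56 units for Gal. Similarly the low SN24h channel, at 232, fell with the low SN48h channel, at 630, a ratio of 2.72. Over the 12 SN arrays both channels of an array lay on the same side of their group means for Gal in 9, with r = 0.759 across arrays. For Npy this was so in 6 arrays and for Vip in 5.

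**Figure D2:**
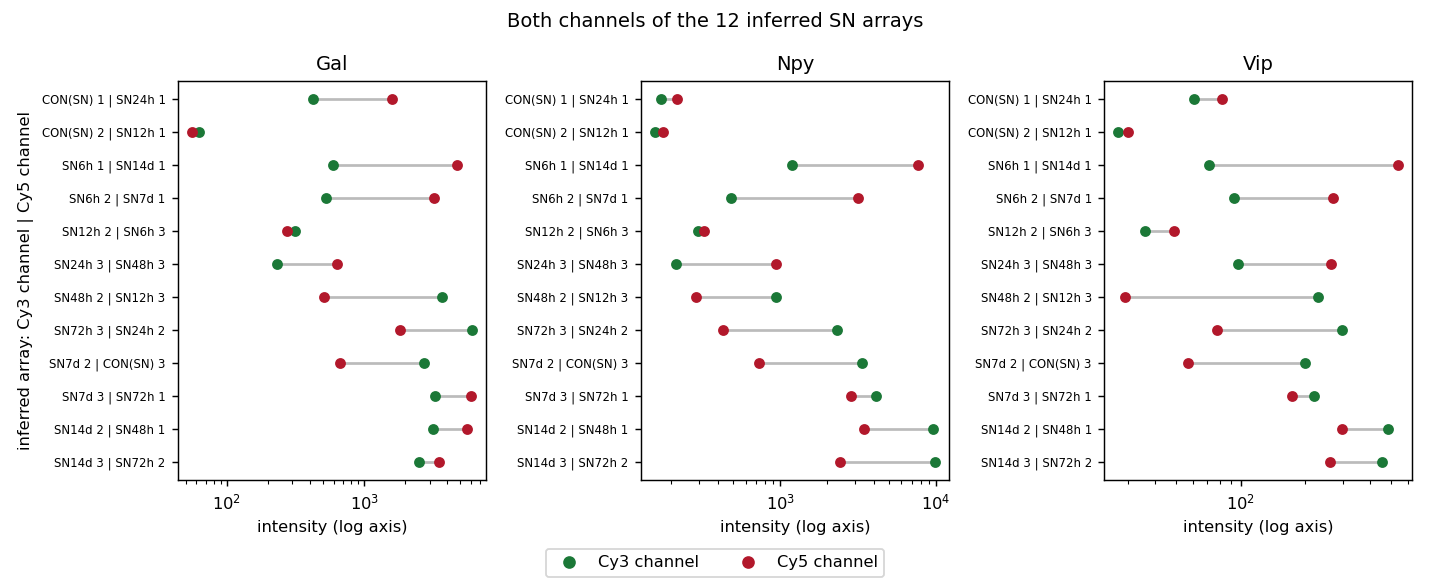
Both channels of each of the 12 inferred SN arrays for Gal, Npy and Vip, as intensity on a log axis, coloured by dye, with a line joining the channels of 1 array. On the array of CON(SN) replicate 2 and SN12h replicate 1 both Gal channels are low, at 63 and 56.

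Ratios within an array leave out what its channels share. Fitted on these 26 arrays with a dye term, Gal was higher by 1.53 ± 0.19 at 24 h (adjusted p = 0.000419; 0.591% of probes called), where the channel fit made no call. It was higher by 2.96 ± 0.22 at 48 h and by 3.07 ± 0.22 at 72 h (8.39-fold; adjusted p = 3.38e-07), then by 2.23 ± 0.19 at 7 d and 2.52 ± 0.23 at 14 d. The SE was smaller than in the channel fit at every time, and so was the rise at 72 h. Of the steps between consecutive times, that from 12 h to 24 h was called within arrays, at 1.66 (adjusted p = 0.00195). That from 24 h to 48 h was called too, at 1.43 (adjusted p = 0.000716; 0.438% of probes). In the authors' deposited table the SN coefficients of Gal were 0.37, 0.22, 1.75, 3.32, 3.40, 2.47 and 2.68 from 6 h to 14 d, in the order of the times.

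Neuropeptide Y was not called against its control at 6, 12 or 24 h after SN, and from 48 h on it climbed to its highest level at the last time. The CON(SN) channels read 171, 158 and 728. The SN6h channels, at 1191, 481 and 323, spread above and within that range. At 12 h the readings were 178, 295 and 289 and at 24 h 217, 427 and 214, all inside the control range. At 48 h they were 3453, 942 and 934, so that each channel exceeded the highest control. The 72 h channels read 2831, 2436 and 2299, and the 7 d channels 3150, 3345 and 4134. At 14 d Npy reached 7608, 9572 and 9902 units, above every other channel of the study for this probe. No overlap with the control remained at 4 of the 7 times, 48 h to 14 d (12.2% of probes were higher without overlap at 48 h).

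The channel fit called Npy at these 4 times. At 6 h the difference was 1.08 ± 0.46 (2.11-fold; adjusted p = 0.464), and at 12 and 24 h it was -0.15 and -0.02. The rise was 2.40 ± 0.46 at 48 h (adjusted p = 0.00117), 3.19 ± 0.46 at 72 h, 3.70 ± 0.46 at 7 d and 5.05 ± 0.46 at 14 d (33.2-fold; adjusted p = 1.15e-10). The call at 48 h was lost without SN48h replicate 1, at 1.79. From 24 h to 48 h Npy rose by 2.42 (adjusted p = 0.00274), the 1 step between consecutive times that was called for it, where 0.237% of all probes were. The level at 14 d exceeded that at 7 d by 1.35, with an unadjusted 95% interval from 0.42 to 2.28. As a step it was not called (adjusted p = 0.0935).

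Within arrays the Npy rise was smaller at each called time, 1.97 ± 0.28 at 48 h, 1.93 ± 0.28 at 72 h, 2.59 ± 0.24 at 7 d and 3.48 ± 0.29 at 14 d (11.2-fold; adjusted p = 5.21e-06). The control channel at 728 units was on 1 array with an SN7d channel at 3345, a ratio of 4.60. In the authors' deposited table the coefficients of Npy at 6, 12 and 24 h were 1.17 (2.25-fold), 0.56 and 0.05, and that at 14 d was 3.65. Within arrays the 6 h difference was 0.35.

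VIP was dim, and its SN channels rose to a plateau and then once more at the last time. The CON(SN) channels read 61, 27 and 57 units, below the channel medians of all probes, 120 to 125. The files hold no measure of background, so that how far the control is above it is unknown. The SN6h channels read 71, 93 and 49, and the SN12h channels 30, 36 and 29. At 24 h they read 82, 78 and 97, all above the control. At 48 h Vip was at 298, 229 and 263, at 72 h at 173, 261 and 296 and at 7 d at 269, 200 and 219, a plateau without a called step. At 14 d it stood at 544, 484 and 455, above every other channel of the study for this probe. From 24 h on, 5 of the 7 times did not overlap with the control (7.9% of probes were higher without overlap at 24 h).

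In the channel fit Vip was called at 48 h, 72 h, 7 d and 14 d, by 2.50 ± 0.27, 2.36 ± 0.27, 2.32 ± 0.26 and 3.44 ± 0.26 (10.9-fold at 14 d; adjusted p = 1.17e-12). The 24 h difference, 0.89 ± 0.27, was not called against the control (adjusted p = 0.214). With both control pools averaged it was 1.07 and was called (adjusted p = 0.00548). Vip rose by 1.44 from 12 h to 24 h (adjusted p = 0.00228; 0.225% of probes were called at this step), by 1.62 from 24 h to 48 h (adjusted p = 0.00024) and by 1.12 from 7 d to 14 d (adjusted p = 0.0154; 2.6% of probes). Within arrays only the middle 1 of these 3 steps was called, at 1.85 (adjusted p = 0.000596; 0.438% of probes). There the rises against control were 2.34 ± 0.28 at 48 h and 3.10 ± 0.29 at 14 d, close to the channel values. In the authors' deposited table they were 2.60 and 3.14.

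**Figure D3:**
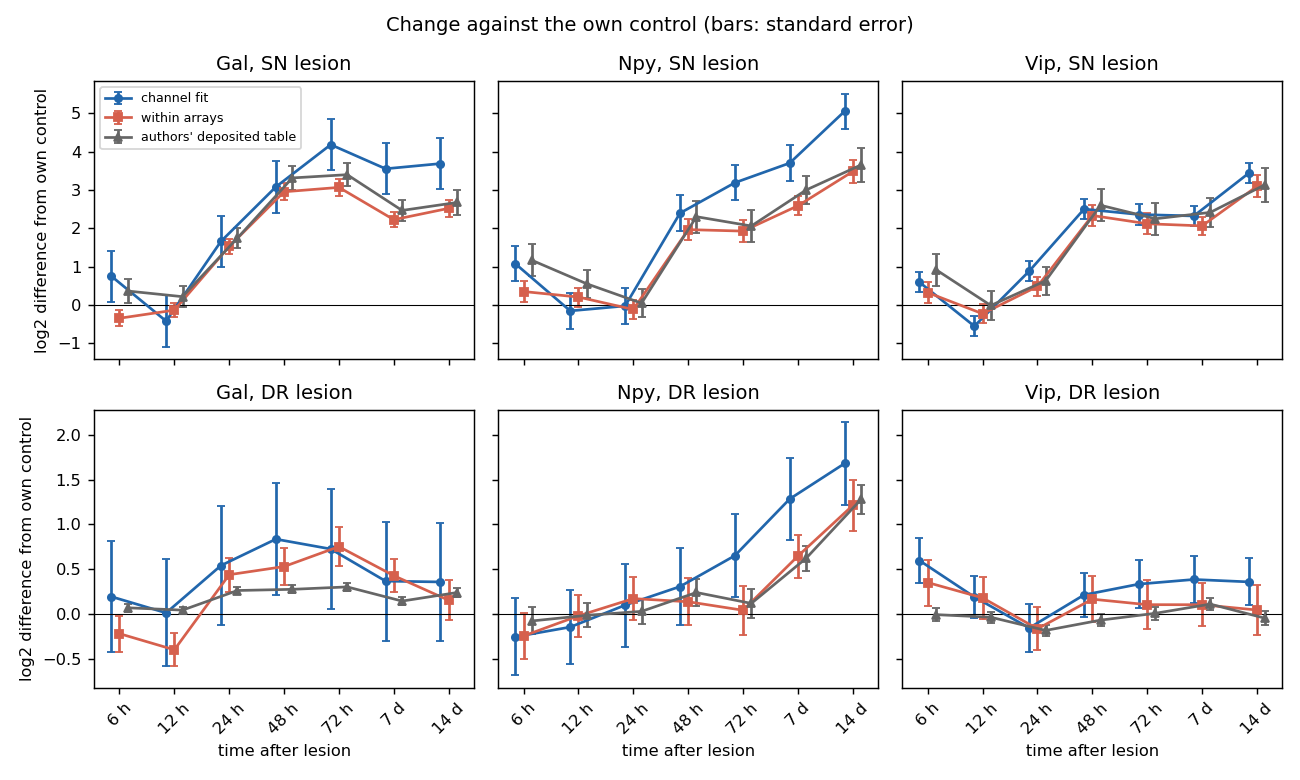
Log2 difference of Gal, Npy and Vip from the own control at each of the 7 times in the channel fit, within arrays and in the authors' deposited table, with SE bars; the SN row and the DR row have different scales. The SN lines of all 3 sources are high from 48 h on, and in DR the line that climbs is Npy at 7 and 14 d, to 1.68, 1.21 and 1.28.

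All 3 peptides were thus called at 48 h, 72 h, 7 d and 14 d after SN and at no earlier time in the channel fit. At these times 1.8%, 1.86%, 1.05% and 1.81% of the 8455 probes were called in either direction, and 2.02%, 1.08%, 1.14% and 1.54% within arrays, where all 3 were called at the same 4 times. Over the whole SN course, tested with a moderated F over the 7 times, 3 of the 3 were called (Gal, adjusted p = 4.05e-07; Npy, 7.84e-13; Vip, 5.55e-16), against 4.93% of all probes, and 3 of 3 within arrays, against 3.76%. The mean over the 7 SN times exceeded the control by 2.36 ± 0.50 for Gal (adjusted p = 0.00508), 2.18 ± 0.35 for Npy (adjusted p = 6.27e-05) and 1.65 ± 0.20 for Vip (adjusted p = 2.71e-07), where 1.29% of probes were called. For Gal this mean fell to 1.38 (adjusted p = 0.526) without CON(SN) replicate 2.

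Control channels add to the shared spread behind each SE, and within arrays they also link pools of different times. They are not the reference in the difference between later SN pools (48 h to 14 d) and earlier ones (6 to 24 h). By that measure Gal rose by 2.96 ± 0.36 (adjusted p = 1.06e-07), Npy by 3.29 ± 0.25 (adjusted p = 2.46e-13) and Vip by 2.35 ± 0.14 (adjusted p = 2.96e-16), with 2.64% of probes called. Within arrays the later SN pools were higher by 2.34 ± 0.11, 2.34 ± 0.14 and 2.21 ± 0.14 in the same order (2.99% of probes called).

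After DR the same probes moved far less. The CON(DR) channels of Gal read 491, 547 and 244. Its 4 channels at 6 h lay between 367 and 522 and its 5 at 12 h between 310 and 531. At 24 h the channels read 565, 459 and 638, at 48 h 834, 488, 827 and 697, and at 72 h 626, 762 and 509. At 7 d Gal read 372, 602 and 627 and at 14 d 606, 421 and 540. Each DR time of Gal overlapped with its control. Its largest difference in the channel fit was 0.84 ± 0.62 at 48 h, and its DR course was not called (adjusted p = 0.901). The SE of this fit rests on a spread estimated over both series. The root mean square deviation of the Gal channels from the fit was 1.01 (log2) in SN and 0.27 in DR.

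Within arrays the Gal course after DR was called, with 0.75 ± 0.21 (1.68-fold) at 72 h (adjusted p = 0.0108), where 5.63% of probes were. Later DR pools were higher than earlier ones by 0.53 ± 0.10 (adjusted p = 0.0164; 1.96% of probes called). In the channel fit that difference was 0.32 ± 0.33 and was not called. Both within-array calls were lost without the dye term, a model whose relative standard errors were those of the authors' deposited table, at 0.66 for the course and 0.56 for later minus earlier. Both were also lost when the inferred array 20 was left out, at 0.55 and 0.41, and the second of them without array 25 or 26 as well. The authors' deposited table gave Gal between 0.04 and 0.30 after DR.

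In the channel fit Npy was the only member called after DR, at the end of the course. CON(DR) read 109, 150 and 262. The 6 h channels, at 140, 188, 93 and 135, and the 12 h channels, from 95 to 220, overlapped with it. The readings were 122, 211 and 193 at 24 h, 128, 159, 247 and 311 at 48 h, and 278, 232 and 243 at 72 h, with single channels above the control. At 7 d Npy read 406, 459 and 332 and at 14 d 405, 620 and 561, all above the highest control channel. Among all probes 6.02% and 13.3% were higher without overlap at these 2 times. Npy rose by 1.68 ± 0.46 at 14 d (3.20-fold; adjusted p = 0.0139), a time at which 12.2% of probes were called. The 7 d difference was 1.28 ± 0.46 (adjusted p = 0.152).

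Of the 3 members, Npy was the 1 whose DR course was called in the channel fit (adjusted p = 0.0105), where 7.81% of probes were. Later DR pools exceeded earlier ones by 1.08 ± 0.23 for Npy (adjusted p = 0.00616; 0.97% of probes called). Without the 4 DR channels that stand apart, 2 of which belong to DR14d, the course peaked at 1.38 (adjusted p = 0.117) and later minus earlier was 0.95 (adjusted p = 0.138), so that both calls were lost. The 14 d call was lost without these 4 channels as well, and also without CON(DR) replicate 1 and without DR14d replicate 2 or 3, with values from 1.37 to 2.07 over the 6 channels left out singly. Within arrays Npy was higher by 1.21 ± 0.29 at 14 d (adjusted p = 0.051, not called), with its course called at adjusted p = 0.00883. Its later minus earlier value there was 0.54 ± 0.13 (adjusted p = 0.0473), and leaving out 11 of the 14 DR arrays singly ended that call. In the authors' deposited table Npy was at 0.62 at 7 d and 1.28 at 14 d.

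Vip stayed within its control range or close to it after DR. The CON(DR) channels read 51, 29 and 31. Over the channels of the 7 DR times its readings ran from 27 to 71, and each time overlapped with the control. The largest difference was 0.60 ± 0.25 at 6 h, and the DR course was not called (adjusted p = 0.328). Later minus earlier was 0.11 ± 0.13 in channels and -0.02 ± 0.13 within arrays. For the mean over the 7 DR times no member was called, at 0.43 ± 0.50 for Gal, 0.52 ± 0.35 for Npy and 0.27 ± 0.20 for Vip, where 6.62% of probes were.

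**Figure D4:**
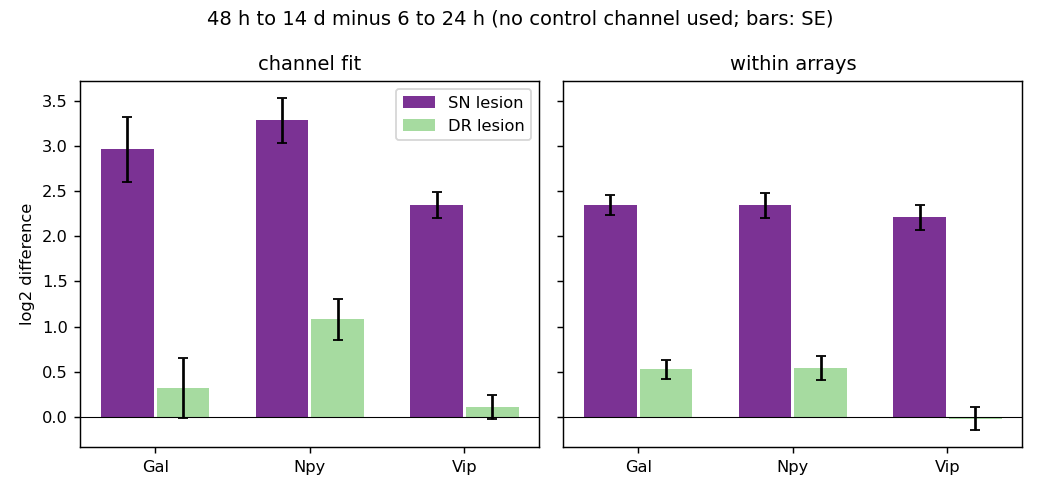
Log2 difference between later pools (48 h to 14 d) and earlier pools (6 to 24 h) for Gal, Npy and Vip after SN and DR, in the channel fit and within arrays, as bars from 0 with SE. The SN bars lie between 2.21 and 3.29, and the DR bars between -0.02 and 1.08.

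Whether the lesions differed was tested as an interaction, SN change minus DR change. For later minus earlier pools the difference was 2.64 ± 0.49 for Gal (adjusted p = 0.00129), 2.20 ± 0.34 for Npy (adjusted p = 4.86e-05) and 2.23 ± 0.19 for Vip (adjusted p = 5.12e-11), and 3 of 3 were called against 0.769% of probes. Within arrays it was 1.82 ± 0.15, 1.80 ± 0.19 and 2.23 ± 0.19, and again 3 of 3 were called, against 1.02%. In the channel fit the difference between the courses was called for each, with its largest value at 72 h for Gal, 3.46 ± 0.95, and at 14 d for Npy, 3.37 ± 0.65, and Vip, 3.08 ± 0.37 (4.18% of probes called). Within arrays it was called for each too (3.82% of probes), and was largest at 48 h for Gal, 2.43, and at 14 d for Npy, 2.27, and Vip, 3.05. At 14 d Npy had risen after both lesions in the channel fit, and the rise after SN was the larger by 3.37. At 72 h alone, the channel-fit call of the Gal lesion difference was lost in 9 of 12 fits with 1 channel of its groups left out.

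On the mean over the 7 times, which leans on the control channels of both series, Vip differed by 1.38 ± 0.28 (adjusted p = 0.00276), Npy by 1.66 ± 0.49 (adjusted p = 0.0546) and Gal by 1.93 ± 0.71 (adjusted p = 0.155), and only Vip was called (2.9% of probes). The Vip call was lost without CON(SN) replicate 2, at 1.02. Within arrays all 3 were called, at 1.35 ± 0.28, 1.21 ± 0.28 and 1.45 ± 0.22 (2.12% of probes). The controls themselves differed by 0.37 for Vip, 0.76 for Npy and -0.54 for Gal, CON(SN) minus CON(DR), none called (0.0237% of probes).

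When each pool was taken as 1 value and SN pools were paired with DR pools of the same time, Npy was higher in 7 of 7 pairs, by 2.42 ± 0.38 (adjusted p = 0.00146). Gal was higher in 6 of 7, by 1.39 ± 0.44 (adjusted p = 0.0439), and Vip in 6 of 7, by 1.74 ± 0.39 (adjusted p = 0.00898). In this comparison 24.1% of all probes were called, and it holds any difference between the SN and DR arrays.

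Placed in order of level, the 16 groups of each gene had the 4 late SN groups on top. For Gal the order began SN72h, SN14d, SN7d, SN48h and SN24h, followed by DR48h, and it ended with CON(DR), CON(SN) and SN12h. Of its 15 neighbouring pairs, the 95% interval of the difference left out 0 only for SN48h over SN24h, at 1.42. For Npy the order was SN14d, SN7d, SN72h, SN48h, SN6h and DR14d, down to DR6h, and the interval left out 0 for SN14d over SN7d and for SN48h over SN6h, at 1.32. For Vip it began SN14d, SN48h, SN72h, SN7d and SN24h and ended with SN12h, and the interval left out 0 for SN14d over SN48h, at 0.94, and for SN7d over SN24h, at 1.44. The intervals of the other neighbours held 0 in all 3 genes. The groups were ordered by these same levels and the intervals were not adjusted for the number of pairs, so they are descriptions. As steps between times, SN48h over SN24h for Gal and SN14d over SN7d for Npy (adjusted p = 0.0935) were not called.

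Across the 14 lesion pools the changes of the 3 genes ran alike, with Pearson r of 0.859 for Gal and Npy, 0.942 for Gal and Vip and 0.903 for Npy and Vip, and of 0.777, 0.885 and 0.906 within arrays. The pools share arrays, and the 7 of a lesion share their control, so these are descriptions. Among 1588 genes whose change had a range of at least 1 (log2) over the 14 pools, those most like Gal were the transglutaminase Tgm1 (r = 0.974), the receptor phosphatase Ptprh (0.969), the muscle LIM protein Csrp3 (0.943), the calcium channel subunit Cacna2d1 (0.929) and the serpin Serpina3n (0.920). Cacna2d1 was also among the 5 most like Npy (0.899) and Vip (0.912). It was higher by 1.81 at 14 d after SN in both fits.

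Most like Npy were the endopeptidase Ecel1 (0.924), Serpina3n (0.906), Cacna2d1, and the class II MHC genes RT1-Da and RT1-Ba (both 0.895). Within arrays the r of Ecel1 with Npy was 0.778. Most like Vip were Tgm1 (0.942), Ptprh (0.929), the cornified envelope protein Sprr1a (0.923), Cacna2d1 and the receptor phosphatase Ptpro (0.908). The opposite pattern was held by Tdo2, the tryptophan dioxygenase, with -0.897 to Gal, and by Calcb, which encodes beta-CGRP, with -0.888 to Gal and -0.819 to Vip. Trim2, a ubiquitin ligase, had -0.868 to Npy, followed by Tdo2 with -0.794 (-0.562 within arrays). The second lowest to Vip was Ppfia1, a scaffold protein of the liprin family, with -0.812 (-0.438 within arrays).

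The measured receptors of the 3 peptides were mostly not called. Galr1, Galr2, Galr3 and the relative Galp, which are the whole galanin list, gave 0 calls in the SN and DR means and in later minus earlier for either lesion, in either fit. Their medians in the channel fit were 0.18, 0.08, 0.01 and 0.06 in that order, and the highest median of all probes was 0.01. Of all probes 1.29%, 6.62%, 2.64% and 0.97% were called there, in the same order. A lack of calls among so few genes therefore says little. The highest pool mean of Galr1 was 67.8 units and that of Galr2 238.3. Of the neuropeptide Y list 5 of 7 genes were measured, the receptors Npy2r, Npy4r and Npy5r and the relatives Pyy and Ppy. The receptors Npy1r and Npy6r had no named probe. Npy5r fell by 0.60 ± 0.13 in later SN pools (adjusted p = 0.00239), a call not made within arrays, at -0.28 (adjusted p = 0.103). Npy2r, the presynaptic receptor, was at 0.06 in that contrast. Both were dim, with pool means from 49.3 to 66.3 units for Npy2r and from 39.3 to 89.3 for Npy5r.

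All 11 genes of the VIP and PACAP list were measured, and none rose in these 4 contrasts, for which the shares of all probes called are given above. Vipr1, Vipr2 and the PACAP receptor Adcyap1r1 were at 0.02, -0.02 and -0.06 in later minus earlier SN pools. Pool means ran from 42.0 to 58.75 units for Vipr1 and from 74.4 to 109.3 for Vipr2. These are below the channel medians of all probes, 120 to 125, and how far they are above background is unknown. Adcyap1, the precursor of PACAP, was the 1 member of the list called there, and fell by 0.39 ± 0.08 (adjusted p = 0.00238) and within arrays by 0.45 ± 0.10 (adjusted p = 0.0244). Its channels were bright, with a CON(SN) mean of 7291 units. Ramp3, an accessory protein of such receptors, fell by 0.65 ± 0.20 in the DR mean in the channel fit, and within arrays its value was -0.13 (adjusted p = 0.695).

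Among 18 measured genes for other sensory neuropeptides, of 21 listed, 1 rose and 4 fell in later SN pools (2.64% of all probes were called), with a median of -0.08. Ucn, which encodes urocortin, rose by 1.99 ± 0.10 (adjusted p = 1.14e-18) and by 1.96 ± 0.09 within arrays. Calcb fell by 0.75 ± 0.14, Nmu (neuromedin U) by 0.53 ± 0.14, Nmb (neuromedin B) by 0.46 ± 0.08 and Adcyap1 as above. In later DR pools Crh, corticotropin-releasing hormone, rose by 0.67 ± 0.13 (adjusted p = 0.00213) and was the 1 gene of the list called in the channel fit. Ucn differed between the lesions by 1.91 ± 0.14 (adjusted p = 2.66e-13) on the interaction of later minus earlier, and Calcb by -0.87 ± 0.20 (adjusted p = 0.0149).

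**Figure D5:**
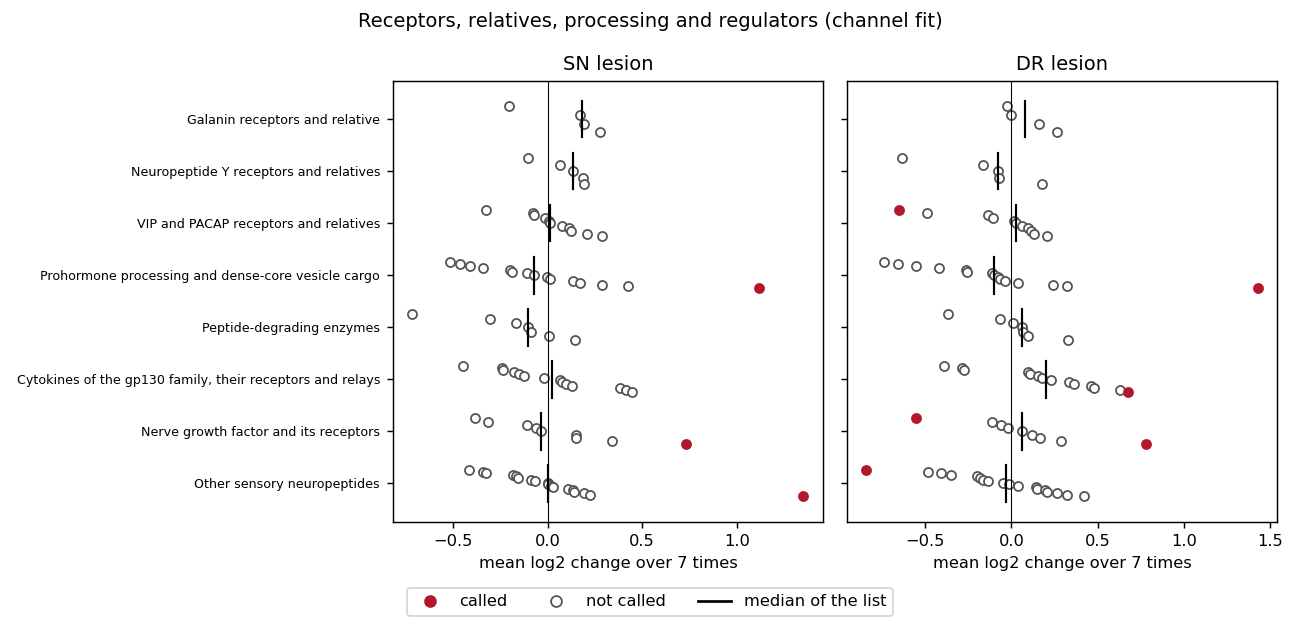
Mean log2 change over the 7 times against the own control (x axis) in the channel fit, 1 point for each measured gene of 8 lists around the 3 peptides, with SN on the left and DR on the right; filled points were called and a bar marks the median of each list. No gene of the galanin or neuropeptide Y receptor lists is filled, and in SN the filled points are Vgf, Gfra1 (0.73) and Ucn (1.35). Of all probes 1.29% (SN) and 6.62% (DR) were called.

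Of 15 measured genes of prohormone processing and vesicle cargo, 2 rose and 1 fell in later SN pools (2.64% of all probes were called), with a median of -0.07. Vgf, a granin-like precursor, rose by 1.16 ± 0.11 (adjusted p = 4.91e-10) and Ptprn, a granule membrane protein, by 0.44 ± 0.11, a call not made within arrays, while Scg2, secretogranin II, fell by 0.61 ± 0.12. Vgf had also risen on the mean over the times after DR, by 1.43 ± 0.16 (adjusted p = 4.74e-08), a contrast in which none of the 3 peptides was called. In later DR pools Vgf rose by 0.44 ± 0.11 and Chga, chromogranin A, fell by 0.51 ± 0.13 (adjusted p = 0.0422), and neither was called within arrays. There Chgb, chromogranin B, fell by 0.51 ± 0.09 in later DR pools, and in the DR mean Pcsk2, a prohormone convertase, fell by 0.93 ± 0.14 and Pcsk1n, which encodes an inhibitor of the related convertase, rose by 0.53 ± 0.12; the channel fit called none of these. None of the 7 measured peptide-degrading enzymes was called in these contrasts in the channel fit, where 0.97% to 6.62% of all probes were. Prep, prolyl endopeptidase, fell by 0.63 ± 0.17 within arrays in the DR mean (adjusted p = 0.0455), where 4.8% of probes were called.

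Of 14 measured genes of the gp130 cytokine family, their receptors and relays, none was called in later SN pools in the channel fit (2.64% of all probes were). Within arrays the interleukin 6 gene Il6 rose by 0.29 ± 0.06 (adjusted p = 0.0199) and its receptor Il6r by 0.48 ± 0.08 (adjusted p = 0.00339). Cntf, ciliary neurotrophic factor, fell by 0.47 ± 0.10 in later DR pools (adjusted p = 0.00326), and Jak2, a kinase of the pathway, rose by 0.67 ± 0.15 in the DR mean, a call not made within arrays. Of 9 genes of nerve growth factor and related receptors, Gfra1, a GDNF receptor, rose by 0.92 ± 0.12 in later SN pools (adjusted p = 4.4e-07) and by 0.49 ± 0.11 in later DR pools (adjusted p = 0.0115). Ngfr, the low-affinity receptor, rose by 0.78 ± 0.15 in the DR mean and Ntrk3, the receptor of neurotrophin 3, fell by 0.56 ± 0.16 there, the latter not called within arrays.

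Sympathetic neurons also make neuropeptide Y, and some make VIP or galanin. The 6 measured markers of sympathetic neurons and chromaffin cells, of 10 listed, summed to 390 to 515 units in CON(SN), to 365 to 698 in SN channels of 6 to 24 h and to 345 to 480 in those of 48 h to 14 d. None was called in later SN pools, where 2.64% of all probes were. Th, the rate-limiting enzyme of noradrenaline synthesis, had pool means between 53.0 and 82.3 units. These markers are few and dim, and the part of such cells in the peptide results was not tested. The 5 measured macrophage markers, of 10, summed to 2036 to 2100 in CON(SN) and to 2876 to 6363 in SN channels from 48 h on, with 4 of the 5 called higher in later SN pools (2.64% of all probes were called). In DR the sums were 1751 to 2148 in the control and 2173 to 4470 from 48 h on, with 4 called higher in later DR pools (0.97% of all probes). Macrophage markers thus moved with time in both lesions, and their part in the peptide results was not tested.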

How the data were processed

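Two-colour array intensity values, 1 column for each of the 52 channels, were used as the authors deposited them, on a linear scale; how they were normalised is not given in the sources used here. Single values ran from 9 to 90077. The deposited log2 coefficients and their standard errors came from limma (version not named), per the submitters' processing notes. Each sample was a pool of 3 animals, per the labels' source field and the series' design text.

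Log2 was taken with no offset and no filter on dim probes. Tests were run with limma 3.58.1 under R 4.3.3 after a check on simulated data, and p-values were adjusted by Benjamini and Hochberg's method over the 8455 probes. Calls needed an adjusted p below 0.05, and for single times and courses at least 1.5-fold change. The authors' limma coefficients served to join Cy3 with Cy5 channels into 12 SN and 14 DR arrays, and each join was the nearest one from either channel. A refit on these arrays without a dye term had r = 0.977 (SN) and 0.648 (DR) with the deposited coefficients across probes and times, so the DR arrays are the less sure. The joins had been chosen with these same coefficients, so r is no independent check of them. Without a dye term the layout of groups over arrays gave the relative standard errors of the deposited table in both series. The members and the lists were chosen with earlier results of these data known. Probes were named through gene identifiers (6885), accessions (3) or the annotation symbol (19); 168 with several genes or none and 1380 not listed stayed unnamed. Of a gene's probes the brightest stood for it. Genes named beside the members were the 5 most and 2 least like each by Pearson r over the 14 pools, the receptors, and called members of each list. Alternatives covered the dye term, an offset of 50, the dim-probe filter, quantile normalisation, the choice of channels and control, a replicate block, the intensity trend, arrays, the deposited coefficients and 1 channel or array left out. The number of arrays limits the precision.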

Additional observations from a re-analysis of the deposited data

Results flagged for a closer look

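All flagged values are differences between the lesions, SN change minus DR change, that passed the interaction test in the channel fit. For later minus earlier pools they were 2.64 for Gal, 2.20 for Npy and 2.23 for Vip. For the course they were 3.46 for Gal at 72 h, 3.37 for Npy at 14 d and 3.08 for Vip at 14 d. For the mean over the 7 times 1 was flagged, Vip at 1.38. SN and DR pools were taken to lie on separate sets of arrays, so that lesion and set of arrays cannot be told apart in levels. Each change was taken against pools on the same set. In the 9 combinations of a gene with a group of 4 or 5 channels no single channel lay far from the others by Dixon's test. The groups of 3, among them the SN control whose Gal channels spread 10.5-fold, are too small for it.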

How the results depend on the processing

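No called value changed its direction under any alternative. Of 987 values recomputed under other settings for 120 results, 919 were unchanged. That means the same direction and, where there was a test, the same side of the threshold. A call was gained in 17 and lost in 24. Another 27, from the deposited coefficients, which have no test, had another size or sign. Of 1950 values with 1 channel or array left out, 1866 were unchanged. The 3 SN courses, the 3 rises from earlier to later SN pools and the 3 lesion differences in them were called under every alternative with a test. Vip is below the median probe, so that the dim-probe filter gives no value for it. With only the channels of the own lesion the Gal SN mean was 2.35 and was not called (adjusted p = 0.1). Within arrays, calls were gained for Gal in DR later minus earlier (0.53), the DR course (0.75) and the lesion difference of the mean (1.45; 1.56 without a dye term). The Npy lesion difference of the mean, 1.66 and just short of the threshold, was called with no dye term (1.69), with an offset of 50 (1.58), with probes above the median probe (1.66) and within arrays (1.21). Without a dye term within arrays, calls were lost for Gal in DR later minus earlier (0.56) and the DR course (0.66), for Npy in DR later minus earlier (0.55) and the lesion difference of the mean (1.23), and for Vip in that difference (1.39). Without the 4 DR channels that stand apart Npy lost its DR course (1.38) and later minus earlier (0.95). The authors' deposited coefficients gave other sizes for Npy in SN later minus earlier (2.17), its lesion difference (1.58), the SN course (3.65) and the course difference (2.38), and for Vip in the DR mean (-0.033), the lesion difference of the mean (1.74), the SN course (3.14) and the DR course (-0.18). The cause was not tested.

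Leaving out 1 channel or array at a time gave 1.38 to 2.99 for the Gal SN mean, lost without CON(SN) replicate 2. It gave 1.24 to 2.44 for the Npy lesion difference of the mean, called in 8 of the 52 fits (2.44 without CON(SN) replicate 3), and 1.02 to 1.60 for that of Vip. Within arrays the ranges were 0.41 to 0.61 (Gal DR later minus earlier), 0.55 to 0.84 (Gal DR course), 0.43 to 0.60 (Npy DR later minus earlier), 0.87 to 1.54 (Npy lesion difference of the mean, lost in 9 of 26), 1.21 to 1.62 (Vip SN mean, lost without array 2) and 1.10 to 1.58 (Vip lesion difference of the mean, lost in 4 of 26).

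Replicate numbers did not pair the samples: channels of the same number in different groups had a median r of 0.0023 over 171 pairs, from -0.66 to 0.65. With the replicate block the Npy lesion difference of the mean was 1.72 and passed the threshold (adjusted p = 0.0492), and the Gal lesion difference at 72 h was 3.49 and did not (adjusted p = 0.0556).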
